A study of Rattus norvegicus with 4 samples.

Results

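Cdh19-Scn7a high satellite glia of the rat dorsal root ganglion were described here, a set of 3029 cells among 15635 satellite glia and 49168 cell barcodes in all. Barcodes with at least 200 genes and at most 25% mitochondrial UMIs (unique molecular identifiers, 1 per captured transcript) were kept, which left 46679. A barcode counted as satellite glia when Fabp7, Ttyh1, Sfrp5 and Kcnj10 together held at least 20 of every 10000 UMIs and the neuronal genes Snap25, Uchl1, Tubb3 and Stmn2 together held fewer than 20. The Cdh19-Scn7a high cells were the top 25% of these, selected on the summed share of Cdh19, Prrg4, Scn7a and Itih5, less the 880 cells that were also in the top 25% by Cxcl10, Gbp2, Gbp5 and Ccl2. The cells were thus chosen by measured expression, and every comparison of them with the other 12606 satellite glia is a description without a test.

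The series compared ipsilateral L4-L6 ganglia of CPIP rats (in the field, chronic post-ischaemia pain, a limb ischaemia and reperfusion model) with those of Sham rats, all wild-type male Sprague-Dawley animals. Each library pooled the ganglia of 3 rats, and there were 2 libraries per group, named CPIP 1, CPIP 2, Sham 1 and Sham 2. Cells were released with dispase, collagenase and papain and captured in microwells on the BD Rhapsody platform. The sources used here give neither age nor the time between the procedure and dissection. Because ganglia were pooled, the spread between libraries is a spread between pools and not between animals.

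Satellite glia wrap the cell bodies of sensory neurons, and share their neural crest origin and the transcription factor Sox10 with Schwann cells, which ensheathe the axons. Satellite glia are known for buffering potassium through Kcnj10, for recycling glutamate through glutamine synthetase (Glul) and for releasing chemokines and growth factors when the nerve is injured. Non-myelinating (Remak) Schwann cells bundle thin axons, carry L1cam and the sodium channel-like gene Scn7a, and lie in a basal lamina rich in collagens.

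The 4 genes of the score have different roles. Cdh19 (ENSRNOG00000029841) is a cadherin of Schwann cell precursors and their progeny, and Scn7a (ENSRNOG00000029342) encodes a sodium-sensing channel. Prrg4 (ENSRNOG00000022710) encodes a transmembrane protein with a vitamin K-dependent Gla domain, and Itih5 (ENSRNOG00000049614) a heavy chain that links to hyaluronan. Their promoter windows, 250 bases before to 50 bases after the annotated start in RefSeq's GRCr8 table, are shown because these genes select the cells, with capitals for the cores ACAAAG and ACAATG that SOX factors bind, searched on both strands. All lie on the minus strand and are printed 5′ to 3′ of the gene, for Cdh19 at chr13:28533704-28534003, Prrg4 at chr3:111698156-111698455, Scn7a at chr3:71846235-71846534 and Itih5 at chr17:73261881-73262180.
Cdh19: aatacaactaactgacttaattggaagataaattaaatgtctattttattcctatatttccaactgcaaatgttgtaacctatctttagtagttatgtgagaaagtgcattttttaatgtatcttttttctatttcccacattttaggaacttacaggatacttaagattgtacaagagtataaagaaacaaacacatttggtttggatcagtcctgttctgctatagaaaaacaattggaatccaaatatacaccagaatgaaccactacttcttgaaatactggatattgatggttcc
Prrg4: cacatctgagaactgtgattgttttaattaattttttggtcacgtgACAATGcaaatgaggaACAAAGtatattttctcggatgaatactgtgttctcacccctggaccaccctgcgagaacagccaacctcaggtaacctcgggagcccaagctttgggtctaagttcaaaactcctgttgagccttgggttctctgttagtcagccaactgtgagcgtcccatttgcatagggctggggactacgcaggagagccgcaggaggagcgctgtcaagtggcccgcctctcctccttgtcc
Scn7a: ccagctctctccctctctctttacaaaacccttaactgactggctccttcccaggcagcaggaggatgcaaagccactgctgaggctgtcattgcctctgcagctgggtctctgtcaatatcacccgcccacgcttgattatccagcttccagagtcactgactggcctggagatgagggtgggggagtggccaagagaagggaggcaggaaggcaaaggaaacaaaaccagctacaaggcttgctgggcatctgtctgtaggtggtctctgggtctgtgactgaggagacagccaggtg
Itih5: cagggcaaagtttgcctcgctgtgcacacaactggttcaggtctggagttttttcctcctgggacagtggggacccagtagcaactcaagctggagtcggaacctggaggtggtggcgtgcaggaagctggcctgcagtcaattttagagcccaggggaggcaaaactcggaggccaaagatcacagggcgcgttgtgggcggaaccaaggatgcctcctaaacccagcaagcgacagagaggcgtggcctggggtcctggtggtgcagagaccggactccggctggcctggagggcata
Prrg4 held 2 such cores, 1 of each, without overlap, and the windows of Cdh19, Scn7a and Itih5 held none. One of the cores was present in 29.1% of all 33469 windows in the table, and in 19.2% of the 10699 windows of genes compared below. A core in a window is a match of letters and not a measured binding site.

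The 4 libraries held 11829 to 12828 barcodes and 60885664 to 64550637 UMIs each. The Cdh19-Scn7a high cells had a median of 3717 UMIs, against 5729 in the other satellite glia. A total of 19 barcodes occurred in more than 1 library, 3 of them on Cdh19-Scn7a high cells, and none was such a cell in both libraries. Doublets were not removed, because the caller marked 2, 278, 1 and 4 barcodes in CPIP 1, CPIP 2, Sham 1 and Sham 2, a failure in 3 of the 4 libraries; the 5% of barcodes with the highest scores were removed in an alternative instead. Gene levels below are given in CPM, UMIs of a gene summed over the cells of a class in a library and scaled to the same total for every sum, and they are not corrected for transcript length.

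The score ran from 25.9 to 206 per 10000 UMIs in the Cdh19-Scn7a high cells, with a median of 40.5, against 11.5 in the other satellite glia. The edge was not a gap: the 100 cells just inside it had a median of 26.2 and the 100 just outside it a median of 25.5. A median of 15 UMIs of the 4 genes stood behind each cell, with a range of 2 to 89. All 4 genes were detected in 1269 of the cells, 3 in 1315, 2 in 397 and 1 in 48. Scn7a was at 1573 CPM in CPIP 1, 1354 in CPIP 2, 1568 in Sham 1 and 1556 in Sham 2 in the Cdh19-Scn7a high cells, and Itih5 at 1408, 1600, 1637 and 1638 CPM in the same libraries. Cdh19 was at 638, 608, 497 and 627 CPM, and Prrg4 at 649, 467, 459 and 396 CPM. Scn7a and Itih5 thus supplied most of the score, and Prrg4 was detected in 55.1% of the cells, against 33.3% of the other satellite glia.

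The name of the cells was then set against markers of both glial types. Their satellite sum had a median of 35.4 per 10000 UMIs, against 67.6 in the other satellite glia, and 35.8% of them lay between 20 and 30, where 5.87% of the other satellite glia lay. Fabp7, the brain-type fatty acid-binding protein, was lower, with 692, 680, 825 and 863 CPM in CPIP 1, CPIP 2, Sham 1 and Sham 2, against 1641, 1569, 1745 and 2590 CPM in the other satellite glia. Kcnj10, the glial potassium channel, differed less, with 742, 656, 736 and 795 CPM against 804, 695, 775 and 908 CPM. Among satellite markers outside the rule, 0 of 11 were past 1.5-fold higher and 2 of 11 past 1.5-fold lower in all 4 libraries; these were Glul (843 ± 81.2 CPM against 1397 ± 162, SD, n = 4 libraries) and the proteoglycan brevican, Bcan (138 ± 23.9 CPM against 299 ± 52.3). Of the same 11 markers, 5 had a positive mean log2 ratio, and their median was -0.10, against 0.09 over all genes compared. By the same threshold 2.84% of all genes compared were higher and 1.99% lower. Sox10 was at 130 ± 15.2 CPM, against 119 CPM in the other satellite glia.

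Of Schwann lineage markers shared by both Schwann types, 11 of 11 measured genes had a positive mean log2 ratio, with a median of 0.40, against a median of 0.09 over all 12403 genes compared. Gap43, a growth-associated protein, and Erbb3, the neuregulin receptor, were past 1.5-fold higher in all 4 libraries, at 85.4 CPM against 44.4 CPM and at 3.63 CPM against 1.63 CPM. Of 13 non-myelinating Schwann markers outside the rule, 9 had a positive mean log2 ratio and the rest did not. Past 1.5-fold higher in all 4 libraries were 3 of the 13, the adhesion molecules L1cam, Chl1 and Cadm2, against 2.84% of all genes compared. Ngfr, the p75 receptor of Remak cells, was at 8.03 CPM against 5.26 CPM, and Gfra3, the artemin receptor, at 3.27 CPM against 2.22 CPM. Among cells with a satellite sum of 40 to 60, the mean log2 ratio of Ngfr was -0.13, with 2 of 4 libraries higher. It was 0.47 at sums of 20 to 30, 0.49 at 30 to 40 and 0.20 at 60 or more, with 3 of 4 libraries higher in each. Of 17 myelinating Schwann markers, 15 had a positive mean log2 ratio, 1 was past 1.5-fold higher and 1 lower. Their median was 0.49, and that of the 13 non-myelinating markers was also 0.49. Summed over the list, the non-myelinating markers came to 2528 ± 38.4 CPM against 2228 ± 16.4 CPM. The myelinating markers came to 8379 ± 1008 CPM against 6145 ± 528 CPM, and the shared Schwann markers to 12354 ± 824 CPM against 9106 ± 230.2 CPM. The lists thus did not set one Schwann type apart from the other. The satellite sum, Fabp7 and Kcnj10 belong to the rule, which required a satellite sum of at least 20 in every cell.

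Relative to the other satellite glia, the cells had higher levels of S100a4, Col3a1, Ntrk3 and L1cam, and lower levels of Fbln2, Spp1, A2m and Has2. At a threshold of 1.5-fold in the same direction in all 4 libraries, 352 of 12403 genes (2.84%) were higher and 247 (1.99%) were lower, with the 16 genes of the rule left out. With satellite glia defined by a sum of at least 30 per 10000 UMIs, a limit chosen after the data had been seen, the counts were 207 higher and 163 lower. These shares are descriptions of cells that were sorted on expression. The 15 largest ratios in each direction, among genes of at least 50 CPM in the higher class, are plotted by library.

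**Figure D1:**
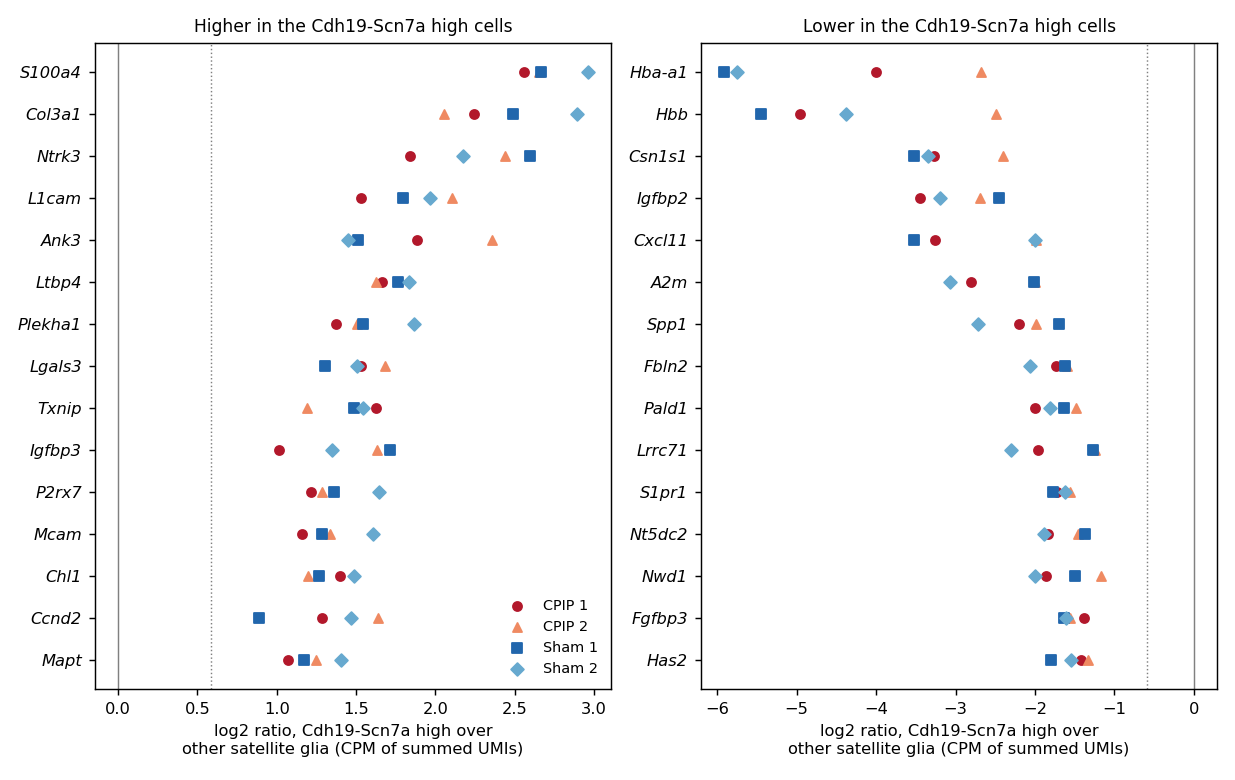
Log2 ratio of CPM, Cdh19-Scn7a high cells over other satellite glia, for the 15 genes with the largest mean ratio in each direction; each point is 1 of the 4 libraries and the dotted line marks 1.5-fold. S100a4 and Col3a1 stand highest, and the haemoglobin genes lowest with the widest spread between libraries.

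S100a4, a calcium-binding protein, had the largest ratio. It was at 107 CPM in CPIP 1, 131 in CPIP 2, 120 in Sham 1 and 81.7 in Sham 2, against 18.2, 20.8, 19.0 and 10.5 CPM in the other satellite glia, 6.53-fold higher on average. Col3a1, a fibrillar collagen, was at 672, 556, 912 and 707 CPM, against 142, 134, 163 and 95.3 CPM. No library of the Cdh19-Scn7a high cells overlapped any library of the other satellite glia for either gene. That is largely built in, since both genes were named for their large ratios in these libraries. Col3a1 was spread over the cells, with at least 1 UMI in 75.9% of them against 27.4% of the other satellite glia.

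The adhesion molecules followed. L1cam, which binds axons to Remak Schwann cells, was at 240, 203, 230 and 202 CPM in CPIP 1, CPIP 2, Sham 1 and Sham 2, against 83.2, 47.1, 66.1 and 51.8 CPM. Its relative Chl1 was at 234, 315, 267 and 224 CPM against 88.7, 138, 111 and 79.7 CPM. Mcam (CD146) was the most even of the set, with 331, 314, 325 and 328 CPM against 148, 124, 133 and 108 CPM. Of 31 adhesion genes measured, 6 were past 1.5-fold higher, L1cam, Chl1, Mcam, Cadm2, Cadm3 and the immunoglobulin-family member Alcam (498 ± 26.5 CPM against 244 ± 16.6), and Cdh11 was lower (91.6 ± 8.76 against 187 ± 21.2). Over all genes compared, 2.84% were past 1.5-fold higher and 1.99% lower. Ncam1, which all these glia carry, was at 1455 ± 34.1 CPM against 1424 ± 26.0 CPM.

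Among signalling genes, Ntrk3, the receptor for neurotrophin 3, was at 64.8, 68.0, 57.9 and 86.9 CPM against 18.1, 12.5, 9.57 and 19.3 CPM, 4.80-fold higher. Ntrk2, the receptor for brain-derived neurotrophic factor, was lower, at 1151 ± 84.9 CPM against 1868 ± 128 CPM. P2rx7, the ATP-gated channel, was at 61.0, 76.3, 91.4 and 70.1 CPM against 26.2, 31.3, 35.7 and 22.4 CPM. The remaining higher genes were the scaffold ankyrin G (Ank3, 3.49-fold), the latent TGF-beta binding protein Ltbp4 (3.30-fold), the adaptor Plekha1 (2.97-fold), galectin 3 (Lgals3, 2.84-fold), the thioredoxin inhibitor Txnip (2.76-fold), Igfbp3 (2.69-fold), cyclin D2 (Ccnd2, 2.50-fold) and tau (Mapt, 2.33-fold). In the TGF-beta list 4 of 25 genes were past 1.5-fold higher and 1 lower, against 2.84% and 1.99% of all genes compared. Among the higher were the type II receptor Tgfbr2 (205 ± 22.3 CPM against 108 ± 6.24) and the target Id2 (225 ± 5.60 against 139 ± 11.2). Pou3f1 (Oct6), a transcription factor of promyelinating Schwann cells, was at 37.3 ± 8.03 CPM against 9.53 ± 2.52 CPM.

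Extracellular matrix genes were found in both directions, and most did not pass the 1.5-fold threshold. Of 41 collagen and matrix genes, 9 were past 1.5-fold higher and 4 lower, against 2.84% and 1.99% of all genes compared. The higher ones included Col6a3 (39.0 ± 1.38 CPM against 6.32 ± 1.03), Col6a2 (37.4 ± 4.27 against 8.90 ± 1.90), Col1a2 (810 ± 90.6 against 368 ± 47.1) and Col28a1, a collagen of peripheral glia (528 ± 99.1 against 294 ± 42.1). The lower ones were Fbln2, Fbln5, Thbs1 and Bgn. Fbln2, an elastic-fibre protein, was at 793 CPM in CPIP 1, 1076 in CPIP 2, 927 in Sham 1 and 723 in Sham 2, against 2639, 3256, 2848 and 3016 CPM. In the basal lamina list 6 of 26 genes were higher and 0 lower, namely the laminin receptor subunits Itga6 (149 ± 7.27 CPM against 75.9 ± 10.2), Itgb4 and Itgb8, with Col15a1, Nid2 and Sgcb.

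Col1a1, Col1a2 and Col3a1 are also fibroblast genes, so the whole fibroblast list was summed. It came to 2588, 2486, 3130 and 2546 CPM in CPIP 1, CPIP 2, Sham 1 and Sham 2, against 1307, 1589, 1484 and 1200 CPM in the other satellite glia. Dcn, the defining proteoglycan of fibroblasts, was at 3.56 ± 2.81 CPM against 13.1 CPM, Lum at 0.595 CPM against 2.76 CPM, and Dpt had no UMI in the Cdh19-Scn7a high cells. Slc6a13 had none in either class. Neuronal markers outside the rule summed to 715, 629, 692 and 698 CPM, against 537, 528, 520 and 518 CPM. Myelinating Schwann markers summed to 7746, 8488, 9759 and 7525 CPM, against 6476, 6199, 6522 and 5383 CPM. The macrophage list was at 5.79 to 31.3 CPM, against 13.1 to 52.7 CPM. The part of RNA from other cells in these levels was not tested.

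Among the lower genes, Spp1 (osteopontin) was at 304, 335, 544 and 206 CPM in CPIP 1, CPIP 2, Sham 1 and Sham 2, against 1402, 1326, 1771 and 1357 CPM. It had a UMI in 29.0% of the Cdh19-Scn7a high cells, against 73.0% of the other satellite glia. A2m, a protease inhibitor, was at 29.4, 69.2, 47.5 and 17.1 CPM against 207, 277, 193 and 145 CPM, and Igfbp2 at 5.13, 15.2, 8.99 and 8.11 CPM against 57.5, 99.3, 50.3 and 75.9 CPM. Has2, which makes hyaluronan, was at 39.7, 43.1, 31.7 and 36.8 CPM against 106, 109, 111 and 108 CPM. In its list of 13 genes, 6 were lower (Has2, Bcan, Vcan, Itih3, Ncan and Hmmr) and 1 was higher, the hyaluronan receptor Cd44 (193 ± 32.9 CPM against 98.7 ± 18.5). The shares over all genes compared were 1.99% lower and 2.84% higher. The casein Csn1s1, the chemokine Cxcl11, the phosphatase-like Pald1, Lrrc71, the sphingosine receptor S1pr1, Nt5dc2, Nwd1 and the growth factor carrier Fgfbp3 were at 0.113 to 0.342 of the level in the other satellite glia. Cxcl11 belongs to the inflammatory programme whose top 25% the rule removed from the Cdh19-Scn7a high cells and left among the others; in satellite glia of neither top 25% it was at 29.9 ± 3.71 CPM.

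Hba-a1 and Hbb, the haemoglobin genes, were lowest, but on few barcodes. Hba-a1 had 75 UMIs in 68 of the Cdh19-Scn7a high cells and 8487 UMIs in 304 of the other satellite glia, where 10 barcodes held 66.6% of them. Its share of cells with a UMI was 2.24% against 2.41%.

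Most sterol synthesis genes lay below the median of all genes but within 1.5-fold. Over all genes compared, 1.99% were past 1.5-fold lower in all 4 libraries and 2.84% higher. Of 26 cholesterol synthesis genes, 1 had a positive mean log2 ratio and the median was -0.48, with 4 past 1.5-fold lower in all 4 libraries. These were Cyp51, the lanosterol demethylase (2234 ± 254 CPM against 3840 ± 71.6), Lss, Ebp and Tm7sf2. In the list of lipid handling genes 5 of 29 were lower and 0 higher, including the lipoprotein Apoe (1147 ± 318 CPM against 1816 ± 494) and the acyl-CoA synthetase Acsbg1 (395 ± 31.7 against 744 ± 47.2). NF-kB and inflammatory genes (4 of 30 lower, median -0.41) and interferon response genes (4 of 31 lower, median -0.31) had negative medians, and the rule itself removed inflammatory cells from one side.

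**Figure D2:**
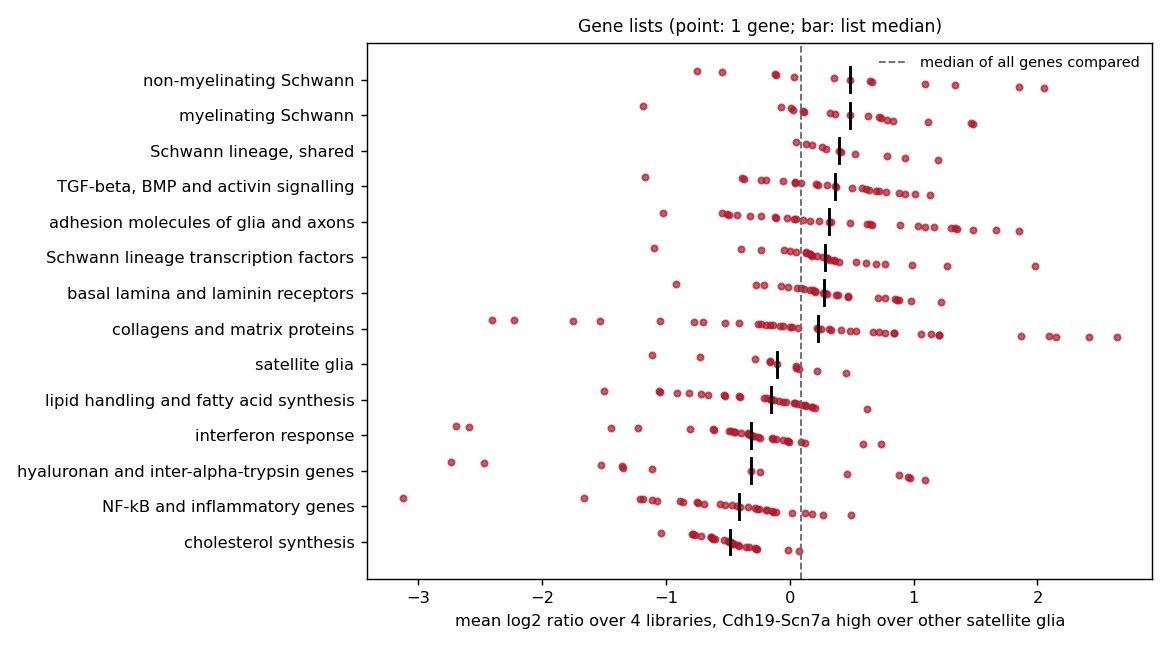
Mean log2 ratio over 4 libraries, Cdh19-Scn7a high cells over other satellite glia, with 1 point per gene, a bar at each list's median and a dashed line at 0.09, the median of all genes compared. The medians of the Schwann, adhesion and basal lamina lists sit to the right of the dashed line, and those of the cholesterol, NF-kB and hyaluronan lists to the left; lists share some genes.

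Since the Cdh19-Scn7a high cells had a lower satellite sum, their levels were compared with those of other satellite glia in the same bin of that sum. The bins do not make the sums equal, and the top bin has no upper limit. In the top bin Fabp7 was at 1852 CPM against 2421 CPM, and Sfrp5 at 2304 CPM against 3184 CPM. Ttyh1 (2351 against 2323 CPM) and Kcnj10 (920 against 866 CPM) were slightly higher. Ratios at 60 or more are therefore not at equal sums. Of the 352 higher genes, 311 were higher on average between 20 and 30 per 10000 UMIs, 326 between 30 and 40, 343 between 40 and 60, and 346 at 60 or more. The 352 genes were chosen for being higher in these same cells and libraries, so the counts are largely built in and test nothing. The median log2 ratio of these genes was 0.49, 0.57, 0.74 and 1.14 in the 4 bins. L1cam was at 252 ± 29.0, 214 ± 34.1, 209 ± 39.9 and 171 ± 37.4 CPM from the lowest to the highest bin in the Cdh19-Scn7a high cells, and at 150.0 ± 34.8, 138 ± 39.5, 90.9 ± 27.6 and 37.8 ± 10.5 CPM in the other satellite glia. Fbln2 was at 459, 767, 1081 and 1605 CPM against 882, 1393, 2145 and 3534 CPM. Between 20 and 30 the mean log2 ratio was 1.51 for S100a4, 0.76 for Col3a1 and 0.77 for L1cam. Over all cells these ratios were 2.71, 2.42 and 1.85. Ntrk3 (1.68 against 1.36 at 60 or more), Plekha1 (0.99 against 0.67) and Txnip (1.03 against 0.96) had larger ratios in the lowest bin. The other named higher genes had smaller ratios there than at 60 or more. Of the 15 named higher genes, 11 were higher in all 4 libraries in every bin, and Ank3, Lgals3, Igfbp3 and Ccnd2 were not. Ccnd2 had a mean log2 ratio of 0.10 between 20 and 30 and 0.04 between 30 and 40, with 2 of 4 libraries higher in each. Of the 15 named lower genes, 8 were lower in all 4 libraries in every bin, Fbln2 and Spp1 among them. The 247 lower genes, chosen in the same way, were lower on average in 231, 235, 239 and 211 cases. Their median log2 ratio was -0.80, -0.69, -0.74 and -0.63 from the lowest to the highest bin.

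**Figure D3:**
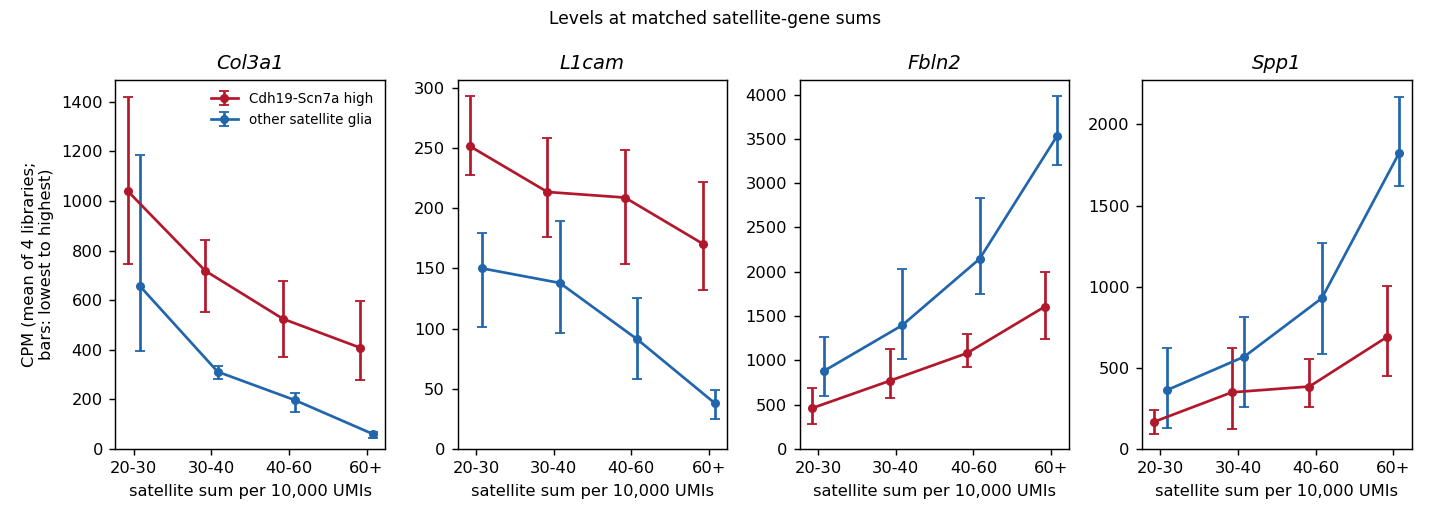
CPM of 4 genes in Cdh19-Scn7a high cells and in other satellite glia, by bins of the satellite-gene sum per 10000 UMIs; points are means of 4 libraries and bars run from the lowest to the highest library. Within each bin the mean of Col3a1 and L1cam is higher, and that of Fbln2 and Spp1 lower, in the Cdh19-Scn7a high cells.

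For comparison, 3182 barcodes passed the same 4-gene threshold with a satellite sum under 20, an endothelial sum under 20 and a summed share of myelin genes under 500 per 10000 UMIs; these limits were set after the data had been seen. These satellite-low cells had a median of 2029 UMIs, and 1776 genes (14.3%) were past 1.5-fold higher and 614 (4.95%) lower in them than in the other satellite glia in all 4 libraries. Col3a1 was at 712 ± 148 CPM in the Cdh19-Scn7a high satellite glia, 134 ± 28.2 CPM in the other satellite glia and 1621 ± 193 CPM in the satellite-low cells. L1cam was at 219 ± 19.2, 62.1 ± 16.3 and 299 ± 30.3 CPM in the same order of classes. Fbln2 was at 880 ± 156, 2940 ± 261 and 231 ± 60.6 CPM, and Igfbp2 at 9.36 ± 4.23, 70.7 ± 21.9 and 1.68 ± 1.62 CPM. For these 4 genes, picked from the named genes above, the Cdh19-Scn7a high satellite glia stood between both other classes, and no library of one class overlapped another class. The rules order the classes in the same way. Median satellite sums were 67.6, 35.4 and 10.0 per 10000 UMIs in the other satellite glia, the Cdh19-Scn7a high cells and the satellite-low cells. Median 4-gene scores were 11.5, 40.5 and 53.7 in that order. An in-between level is thus partly built in for genes that follow either measure. Over all 12403 genes, with no threshold of fold, 228 were above both other classes in all 4 libraries and 256 below both. Dcn was at 18.7 CPM and Ngfr at 31.7 CPM in the satellite-low cells.

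**Figure D4:**
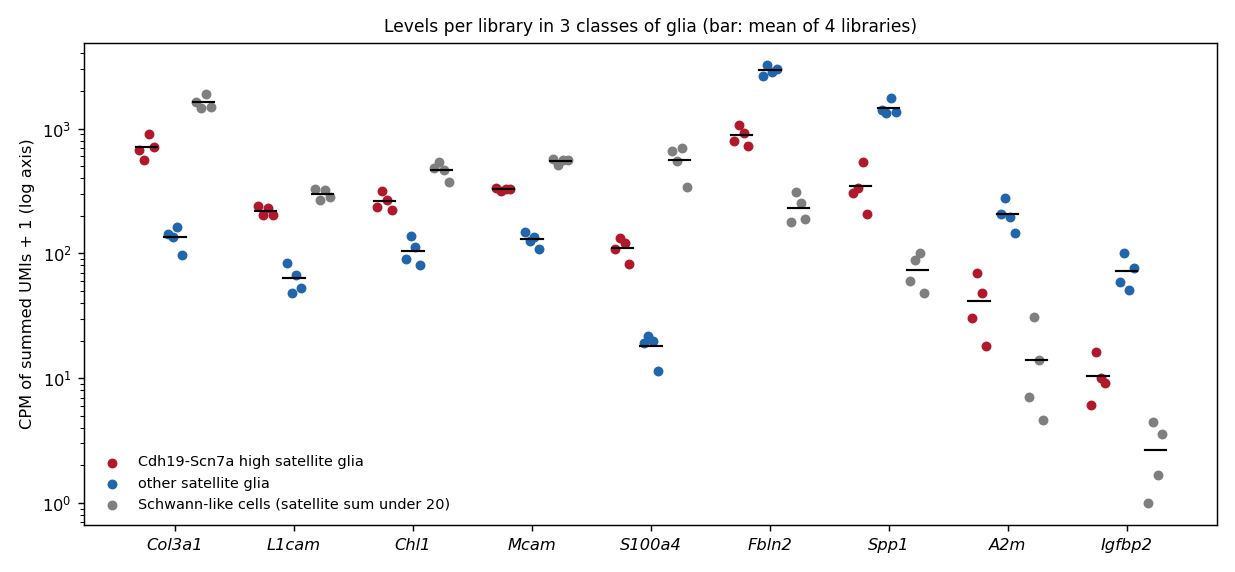
CPM plus 1 on a log axis for 9 genes in Cdh19-Scn7a high satellite glia, other satellite glia and satellite-low cells with the same 4-gene score; each point is a library and the bar is the mean of 4 libraries. The mean of the Cdh19-Scn7a high cells lies between the means of the other classes for all 9 genes plotted, which were picked from the named genes.

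A total of 36 of the 12403 genes were past 1.5-fold from both other classes in all 4 libraries, 1 of them higher. That gene was Cap2, an actin regulator chosen here after its values were seen, at 7.77 CPM against 3.84 CPM in the other satellite glia and 3.89 CPM in the satellite-low cells. The lower genes had at most 5.71 CPM (Hba-a1) in the Cdh19-Scn7a high cells, so their ratios rest on few UMIs. Of the cycling cell markers, 4 of 11 were past 1.5-fold lower than in the other satellite glia, Tpx2, Cdk1, Top2a (4.13 ± 3.48 CPM against 21.8 ± 3.74) and Mki67 (0.792 ± 1.04 against 6.17 ± 1.22). The share past 1.5-fold lower over all genes compared was 1.99%. Top2a had 58 UMIs in the Cdh19-Scn7a high cells, of which 10 barcodes held 98.3%. The level of Top2a therefore rested on few cells.

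Across all satellite glia with at least 1000 UMIs, thinned to 1000 UMIs each (15215 cells), the genes whose level followed the 4-gene score most closely were ranked by Spearman's rho within each library. Col3a1 led 3204 genes with a mean rho of 0.34 (0.29 to 0.37 over the 4 libraries), followed by Vim, an intermediate filament (0.29), Prnp, the prion protein (0.28), and Sparc, a matrix glycoprotein (0.25). Abca8a, Col1a2, L1cam, Mcam and S100a6 were also among the 10 highest. Fbln2 was the most opposed, at -0.40 (-0.44 to -0.37), with Abhd4 at -0.32, Fbln5 at -0.31 and Spp1 at -0.30. Cells of a library share its preparation, and thinned counts are sparse, so these values only describe the ordering.

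The share of satellite glia in the Cdh19-Scn7a high set was 21.8% in CPIP 1 (822 of 3772, exact binomial 95% interval 20.5 to 23.1%) and 18.2% in CPIP 2 (743 of 4079, 17.0 to 19.4%). It was 18.8% in Sham 1 (720 of 3836, 17.5 to 20.04%) and 18.8% in Sham 2 (744 of 3948, 17.6 to 20.1%). The intervals cover counting error only. The groups averaged 20 ± 2.53% in CPIP and 18.8 ± 0.0533% in Sham (SD, n = 2 each), and overlapped, and an exact permutation test (two-sided) gave p = 1, where 2 against 2 libraries allow no p below 0.333. The log2 ratio of 0.09 rested on CPIP 1 and was -0.05 without it.

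Within the Cdh19-Scn7a high cells, no gene passed the test between CPIP and Sham. edgeR's quasi-likelihood test on UMIs summed per library called 0 of 9889 genes (0.0%) at an adjusted p under 0.05, with 388 (3.92%) at an unadjusted p under 0.05 and a smallest adjusted p of 0.988. DESeq2 called 1, Rpl10a-ps9. Counts of calls depended on single libraries: 421 genes were called without CPIP 1 and 116 without CPIP 2, and none without Sham 1 or without Sham 2. Where 1 library is left, it is assumed to vary like the other group. Rpl10a-ps9, a copy of a ribosomal protein gene whose reads may be shared with its parent, had the smallest p, with 15.3 and 34.96 CPM in CPIP 1 and CPIP 2 against 0.713 and 2.04 CPM in Sham 1 and Sham 2.

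The genes of at least 20 CPM with the smallest unadjusted p and groups that did not overlap are given as values, since none was called. Such groups were found for 15.8% of all genes with both CPIP libraries above both Sham libraries, and for 16.8% below, 32.6% in either direction. Igf1, a growth factor, was at 153 CPM in CPIP 1 and 133 in CPIP 2, against 84.9 in Sham 1 and 93.6 in Sham 2, a log2 difference of 0.68 ± 0.12 (SE). Tnfrsf1a, the main TNF receptor, was at 76.5 and 80.6 CPM against 47.1 and 53.2 CPM. Stat3, the transducer of interleukin 6 family signals, was at 576 and 635 CPM against 443 and 460 CPM. Acat2, Msmo1, the gene ENSRNOG00000069480 and the rule gene Ccl2 were also on the higher side, with log2 differences of 0.46, 0.56, 0.63 and 0.40.

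On the lower side, Pmp2, the myelin fatty acid-binding protein, was at 173 and 236 CPM in CPIP 1 and CPIP 2, against 323 and 289 CPM in Sham 1 and Sham 2, a log2 difference of -0.58 ± 0.15. Cd48, a surface protein of the immunoglobulin family, was at 788 and 719 CPM against 944 and 1074 CPM. The remaining lower genes were Tspyl1 (ENSRNOG00000063919), Spock3, Pithd1, the kinase Dstyk, LOC120102992 and RGD1359290, with log2 differences between -0.38 and -1.03. RGD1359290 was at 34.3 and 72.4 CPM against 108 and 108 CPM, so that the CPIP libraries differed from each other by more than the Sham libraries did.

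More cholesterol synthesis genes than genes of any other list had an unadjusted p under 0.05. Of 24 tested, 22 had a positive log2 difference, with a median of 0.35 against 0.003 over all genes, 10 had an unadjusted p under 0.05, all higher in CPIP (3.92% of all genes in either direction), and 0 were called. Both CPIP libraries were above both Sham libraries for 16 of the 24 (15.8% of all genes). Msmo1, a demethylase of the pathway, was at 1354 CPM in CPIP 1 and 1080 in CPIP 2, against 853 in Sham 1 and 797 in Sham 2, and Idi1, the isopentenyl diphosphate isomerase, at 2437 and 2072 CPM against 1658 and 1688 CPM. Cyp51 was at 2536 and 2408 CPM against 2077 and 1964 CPM. Without CPIP 1 the median was 0.21, with 21 of 25 positive, and without CPIP 2 it was 0.41, with 20 of 24 positive.

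**Figure D5:**
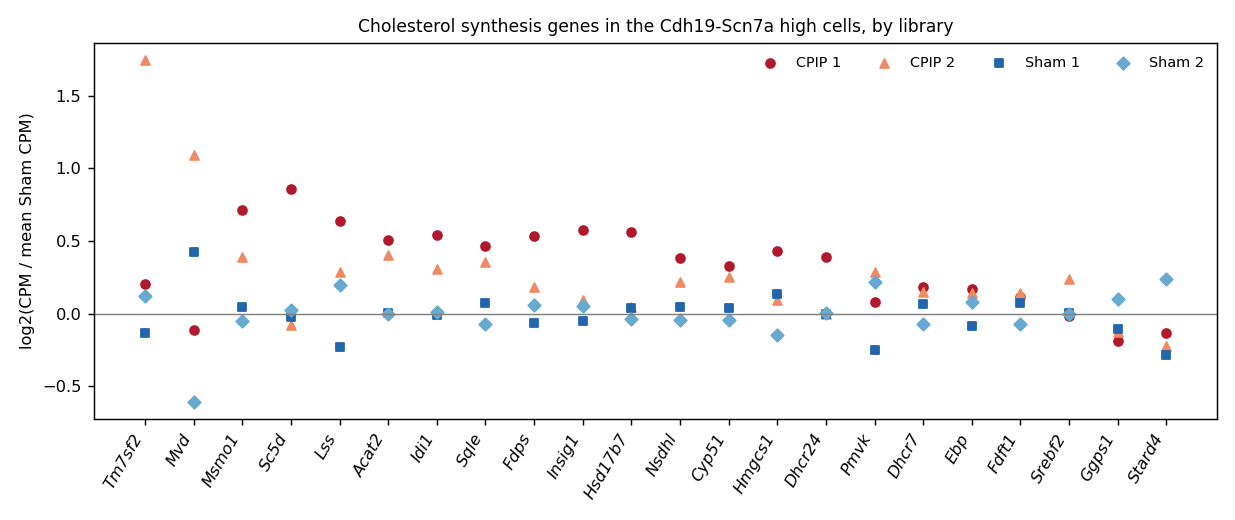
Log2 of CPM over the mean Sham CPM in the Cdh19-Scn7a high cells for 22 of the 24 cholesterol synthesis genes tested, ordered by fitted log2 difference, with 1 point per library. CPIP 1 and CPIP 2 lie above both Sham libraries for 14 of the genes plotted.

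Other lists gave smaller counts. NF-kB and inflammatory genes had 19 of 21 positive, a median of 0.28, 6 with an unadjusted p under 0.05 and 12 with both CPIP libraries above both Sham libraries. Over all genes, 3.92% had an unadjusted p under 0.05 in either direction, and 15.8% had both CPIP libraries above both Sham libraries. In the NF-kB list, Icam1, a leukocyte adhesion molecule, was at 262 and 278 CPM in CPIP 1 and CPIP 2 against 180 and 224 CPM in Sham 1 and Sham 2, and Il6 at 165 and 147 CPM against 82.0 and 137 CPM. The median of the NF-kB list was 0.42 without Sham 2 and 0.19 without Sham 1. Reactive glia genes (11 of 15 positive, median 0.29) and glucocorticoid-responsive genes (11 of 15, median 0.28) each had 6 members above in both CPIP libraries; without CPIP 2 the glucocorticoid median was 0.08. Repair Schwann and nerve injury genes had 12 of 15 positive, 6 with both CPIP libraries above both Sham libraries and 0 at an unadjusted p under 0.05, and myelinating Schwann genes 7 of 15 positive with a median of -0.09, which was 0.19 without Sham 1. None of these lists held a called gene. The median inflammatory sum of the rule was 30.4 and 29.9 per 10000 UMIs in CPIP 1 and CPIP 2 against 22.6 and 22.8 in Sham 1 and Sham 2, and its part in these lists was not tested.

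The difference between the response of the Cdh19-Scn7a high cells and that of the other satellite glia was tested as an interaction with library as a block. edgeR called 0 of 12419 genes (0.0%), with 514 (4.14%) at an unadjusted p under 0.05, and DESeq2 called 0. edgeR called 9 genes without CPIP 1, 1 without CPIP 2, 25 without Sham 1 and 32 without Sham 2. Col3a1 had a log2 difference of response of -0.53 ± 0.10 (SE, adjusted p = 0.678), with 662 and 549 CPM in CPIP 1 and CPIP 2 against 876 and 693 CPM in Sham 1 and Sham 2 in the Cdh19-Scn7a high cells, and 147 and 137 CPM against 165 and 97.7 CPM in the other satellite glia. Igf1 had one of 0.44 ± 0.10 (adjusted p = 0.998), with 149 and 129 CPM against 82.3 and 91.4 CPM in the Cdh19-Scn7a high cells, and 310 and 290 CPM against 216 and 291 CPM in the others. Spidr and Hba-a1 were the other 2 genes with the smallest p. Of the 26 cholesterol genes, 23 had a positive difference of response, with a median of 0.20. Of the 11 shared Schwann markers 1 did, with a median of -0.14. The median over all genes was -0.002, and no gene of either list was called.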

How the data were processed

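Single-cell RNA-seq libraries of rat dorsal root ganglia (2 CPIP, 2 Sham) were analysed from the deposited matrices, which hold whole-number UMI counts per gene and barcode, per the file headers and values. Aligner, genome build and annotation: not given in the sources used here. Of 25629 features, 3852 have no symbol and 211 symbols are shared by several features; these keep their Ensembl ID. No barcode held fewer than 500 UMIs. Cells were chosen and the gene lists made with earlier results of these data known.

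Counts were summed per class and library and scaled to CPM. Ratios between classes used a prior of 0.5 counts and have no test. CPIP and Sham were compared with edgeR 4.0.16 (quasi-likelihood, TMM, Benjamini-Hochberg adjustment, R 4.3.3) over the 4 library sums, and the difference of response in 1 fit of both classes with library as a block; DESeq2 1.42.0 was an alternative. Labels call the libraries biological replicates, each a pool of 3 rats. Named genes were the 15 largest ratios in each direction at 50 CPM or more, the 8 smallest unadjusted p in each direction at 20 CPM or more with groups apart, the 10 most and least like the score, and the 4 smallest p of the interaction. The fits were tested on simulated data at an adjusted p under 0.05. Of 100 genes changed 2-fold, the contrast of CPIP and Sham recovered 83 and the interaction 55. Of 100 changed 4-fold, they recovered 100 and 99. False calls numbered 10 and 11. A 2-fold difference of response could thus often be missed. The changed genes all had a mean of at least 20 CPM and were changed in the same simulation. Each sum was drawn independently, with no effect shared within a library. The recovered shares hold for that setting and not for genes of lower level or for few changed genes. Doublets were scored with scrublet in scanpy 1.11.5 and not removed. Alternatives were other normalization, filters, cell rules, a replicate block and leaving out each library. Values of some genes are not reported here.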

Additional observations from a re-analysis of the deposited data

How the results depend on the processing

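The count of genes called between CPIP and Sham was 0 and was most sensitive to single libraries, at 0 to 421 when 1 library was left out. It was 139 with no filter on low counts, 1 with DESeq2 (114 genes at an unadjusted p under 0.05) and 1 with the replicate block. Replicate numbers are shared labels only: same-numbered libraries had deviations correlated at -0.1755 over 3103 genes, and the crossed pairing, added after the data were seen, called 0. For the interaction the count was 0, and 1 to 32 when 1 library was left out. It was 18 with no filter, 4 with a satellite sum of at least 30 (a limit chosen after seeing the data), and 1 each with the score thresholds set per library, with at least 1500 UMIs, without the highest doublet scores, with the inflammatory cells kept in, and with them left out of both classes. The log2 ratio of the share ran from -0.046 (without CPIP 1) to 0.21. The 352 higher genes were 207 at a satellite sum of at least 30 and 97 at 2-fold, and the 247 lower genes 163 and 94; with 1 library left out they were 465 to 517 and 301 to 328. The response difference of Hba-a1 reversed to -2.48 with the inflammatory cells kept in. Causes were not tested. Of single-gene values between CPIP and Sham, 223 kept direction and side of the threshold and 33 passed it under an alternative.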
